A study of Mus musculus with 2 samples.

Results

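The microRNAs described here are the 9 mature forms cut from 5 hairpins at 4 imprinted loci of the mouse. They are miR-298-5p, miR-296-5p and miR-296-3p of the Gnas locus, miR-335-5p and miR-335-3p of Mest, miR-675-5p and miR-675-3p of H19, and miR-483-5p and miR-483-3p of Igf2. They were chosen by name for their loci and make up 9 of the 1909 mature microRNA names in the deposited files. Small RNA was sequenced from vascular smooth muscle cells, the contractile cells of the vessel wall, grown from the thoracic aorta of male mice, 10 to 12 weeks old, in DMEM/F-12 medium with 10% fetal bovine serum. The db/db group came from type 2 diabetic mice homozygous for the db allele of the leptin receptor gene Lepr (BKS.Cg-m+/+Leprdb/J per the labels). The db/+ group came from control mice with 1 such allele (Lepr+/-), and their strain background was not given further in the labels. Each group had 1 library, and the labels did not say how many mice or cultures a library held, so a difference between the genotypes could not be tested. Every difference below is between these 2 libraries.

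An imprinted gene is expressed mainly from the copy inherited from 1 parent. Many imprinted genes govern growth and metabolism before birth and are turned down after it. In the mouse, Mest, Igf2 and the Nespas transcript of the Gnas locus are expressed from the paternal copy and H19 from the maternal copy. A microRNA inside such a gene is cut from the gene's transcript: the hairpin is released in the nucleus, trimmed in the cytoplasm, and the 5p or 3p arm is kept as the mature strand. The seed, bases 2 to 8, sets which messenger RNAs it pairs with. The counts do not separate the parental copies.

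The mature sequences, from RefSeq on GRCm38.p6, are shown because each of the 9 has a seed of its own. The seed is in capitals.
mmu-miR-298-5p: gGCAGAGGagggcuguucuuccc
mmu-miR-296-5p: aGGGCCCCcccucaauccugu
mmu-miR-296-3p: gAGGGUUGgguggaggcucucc
mmu-miR-335-5p: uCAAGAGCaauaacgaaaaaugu
mmu-miR-335-3p: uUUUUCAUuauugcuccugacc
mmu-miR-675-5p: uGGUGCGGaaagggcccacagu
mmu-miR-675-3p: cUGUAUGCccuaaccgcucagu
mmu-miR-483-5p: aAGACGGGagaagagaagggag
mmu-miR-483-3p: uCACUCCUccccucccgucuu
The 9 seeds were all distinct, and 0 of the other names with a RefSeq mature sequence (1623 names in all) carried any of them. No other sequence came closer to a member than 6 base edits, and for the 3 Gnas microRNAs the closest was 8 edits away. Reads shared with a near-identical microRNA therefore have no candidate among these sequences.

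The hairpins differ in how they sit in their loci (coordinates on GRCm38, GENCODE M21). Mir298 lies at chr2:174267504-174267585 and Mir296 at chr2:174267047-174267125, both on the minus strand and 378 bases apart. Neither was inside an annotated gene: the end of Nespas, the antisense transcript of the Gnas locus, was 13.7 kb upstream on the same strand, and the nearest end of Gnas, on the plus strand, was 16.7 kb away. Mir335 (chr6:30741299-30741396, plus strand) is in an intron of Mest. Mir675 (chr7:142577064-142577147, minus strand) is inside an exon of the long non-coding RNA H19. Mir483 (chr7:142654924-142654996, minus strand) is in an intron of Igf2, 77.8 kb from Mir675 on the same chromosome.

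The db/db library held 24295112 microRNA counts over 833 detected names, and the db/+ library 25915732 over 881. Levels are counts per 1e6 microRNA counts (CPM), with exact Poisson 95% intervals, and a ratio is db/db over db/+ with an exact conditional 95% interval. No molecular identifiers marked PCR copies, so all intervals and limits cover counting error only. The smooth muscle microRNAs miR-143 and miR-145a, 4 names in all, summed to 1567 CPM in db/db and 1656 CPM in db/+. By name, the ratios were 0.971 for miR-143-3p, 1.32 for miR-143-5p, 0.795 for miR-145a-5p and 0.977 for miR-145a-3p. Endothelial miR-126a (2 names) summed to 2.92 CPM in db/db and 0.270 CPM in db/+, the 6 blood names to 6.71 and 6.48 CPM, with miR-142a-3p, miR-144-3p and miR-223-3p at 0 in both, and the 6 epithelial names to 0.906 and 0.270 CPM, with 2 of the 6 at 0 in each library. Most of the blood sum came from miR-486a-5p, at 6.05 CPM in db/db and 5.79 CPM in db/+. The part of these marker microRNAs in the results below was not tested.

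The 4 loci stood far apart in level. The Gnas locus gave 14007 counts in db/db and 8751 in db/+, which was 99.9% and 99.6% of the counts on the 9 names. Mest gave 16 counts in db/db and 6 in db/+, Igf2 gave 2 and 29, and H19 gave 0 in both. Of the 9 names, 5 were detected and 4 had no count in either library. Only the 3 Gnas names reached 50 counts in a library, as did 356 of all 1909 names.

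**Figure D1:**
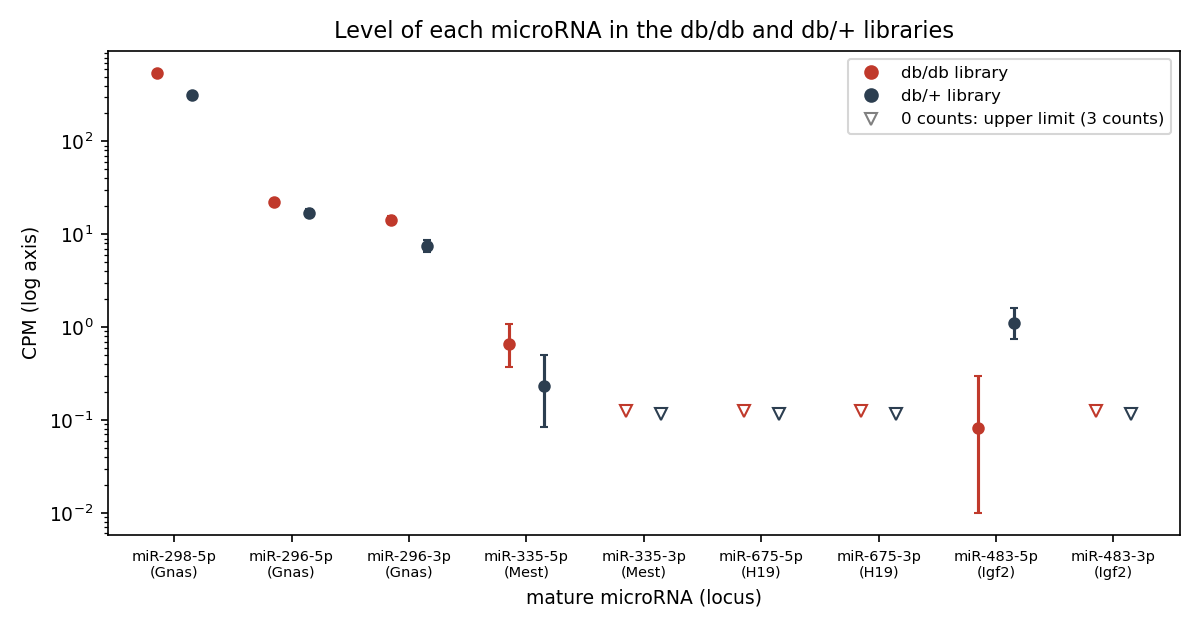
Level of each of the 9 microRNAs in CPM on a log axis, with the db/db library left and the db/+ library right; bars are exact Poisson 95% intervals, and open triangles mark the upper limit that a count of 0 allows. The 3 Gnas microRNAs lie above 7 CPM in both libraries, miR-335-5p and miR-483-5p lie near or below 1 CPM and in opposite order, and the other 4 names have no count.

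At the Gnas locus, all 3 microRNAs had more CPM in db/db than in db/+. The most abundant, mmu-miR-298-5p, reported in mouse cells to repress the protease gene Bace1, had 13120 counts in db/db and 8115 in db/+. That is 540 CPM (531 to 549) in db/db and 313 CPM (306 to 320) in db/+, a 1.72-fold higher level (1.68 to 1.77), or 0.79 on the log2 scale. It alone made up 93.5% of the counts on the 9 names in db/db and 92.4% in db/+. Among all detected names it ranked 44th in db/db and 54th in db/+. The let-7 family and miR-98 took 81.3% of all counts in db/db and 81.4% in db/+, and of the remaining counts miR-298-5p held 0.289% in db/db and 0.169% in db/+.

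Both arms of miR-296, described in human endothelial cells as promoting vessel growth, were far less abundant. The 5p arm, mmu-miR-296-5p, had 541 counts in db/db and 443 in db/+, or 22.3 CPM (20.4 to 24.2) and 17.1 CPM (15.5 to 18.8), a ratio of 1.30 (1.15 to 1.48). The 3p arm, mmu-miR-296-3p, had 346 counts in db/db and 193 in db/+, or 14.2 CPM (12.8 to 15.8) and 7.45 CPM (6.43 to 8.58), a ratio of 1.91 (1.60 to 2.29). For all 3 Gnas names the intervals of the 2 libraries were apart. The locus as a whole had 577 CPM in db/db and 338 CPM in db/+, a ratio of 1.71 (1.66 to 1.75).

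Of the 3, 0 were at least 2-fold higher or lower (a ratio of 0.5 or less), the size rule used because no test could be made. Over all 356 names past 50 counts, 4.49% had a ratio of at least 2, 13.5% a ratio of at most 0.5, and 18.0% either. The ratio of miR-296-3p was close to the limit: it was 2.03 or higher (up to 2.05) with the TMM, DESeq2, upper-quartile and deposited scalings, and 1 of 3 names then passed, beside 5.34% of the 356 names under each of these 4. A ratio above 1 was itself common, in 43.0% of the 356 names, as was a ratio above 1 with an interval that excluded 1, in 31.7%. The median log2 ratio was 0.79 for the 3 names and -0.14 for the 356.

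For its level, miR-298-5p lay near the upper edge of the ratios. Of the 92 names with at least 100 CPM in a library, a limit chosen after the values were seen, 1 had a higher ratio: miR-10a-5p at 1.79 (1.78 to 1.81). The log2 ratios of those 92 names ran from -0.78 at the 5th to 0.66 at the 95th percentile, and their median ratio was 1.02. Among all 356 names past 50 counts, 23 had a higher ratio than miR-298-5p, 18 a higher one than miR-296-3p and 71 a higher one than miR-296-5p.

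**Figure D2:**
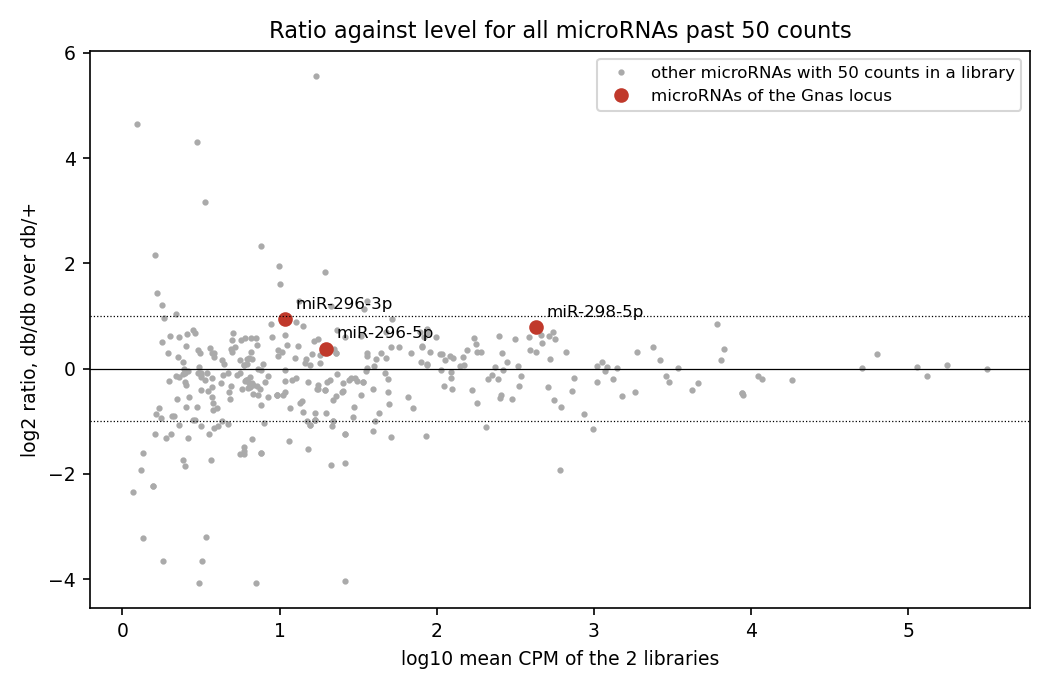
Log2 ratio of db/db over db/+ against log10 mean CPM for the 356 microRNAs that reached 50 counts in either library; red points are the 3 Gnas microRNAs, grey points all others, and dotted lines mark a ratio of 2 and of 0.5. The spread of ratios narrows with level, and miR-298-5p, at a log2 ratio of 0.79, lies at the top of its level range while no Gnas point crosses the dotted lines.

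Base composition moved with the ratio across the libraries, and the Gnas microRNAs are rich in G and C. The GC content was 65.2% in miR-298-5p, 66.7% in miR-296-5p and 68.2% in miR-296-3p, against a median of 47.8% over the 286 names past 50 counts with a RefSeq mature sequence (80.3% of the 356). Across these 286 names, which share the same 2 libraries, the log2 ratio had a Spearman correlation of 0.38 and a Pearson correlation of 0.27 with GC content. A ratio above 1 was measured for 34 of the 50 names with at least 60% GC, the 3 Gnas names included, and for 98 of the 236 below 60%. Their median log2 ratios were 0.32 and -0.14. All 7 names with at least 60% GC and at least 100 CPM had a ratio above 1, with a median of 1.245, and miR-298-5p was the highest of them, followed by miR-99b-3p at 1.59 and miR-341-3p at 1.52.

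A linear trend on GC content was removed in 2 ways, both added after the results were seen. Taken over the value of the trend at its own GC content, the ratio was 1.43 for miR-298-5p, 1.505 for miR-296-3p and 1.05 for miR-296-5p. Shifted along the trend to the median GC content, where the trend itself had a log2 ratio of -0.165, the ratios were 1.27, 1.34 and 0.94. All 3 thus lay above the trend, miR-298-5p and miR-296-3p stayed above 1 in both ways, and the side of miR-296-5p depended on the level at which the trend was set. Whether base composition had a part in the ratios was not tested. Of the 286 names, 46 lay further above the trend than miR-298-5p, 40 further than miR-296-3p and 142 further than miR-296-5p. Among the 50 names with at least 60% GC, 4 had a higher ratio than miR-298-5p, 3 a higher one than miR-296-3p and 20 a higher one than miR-296-5p.

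**Figure D3:**
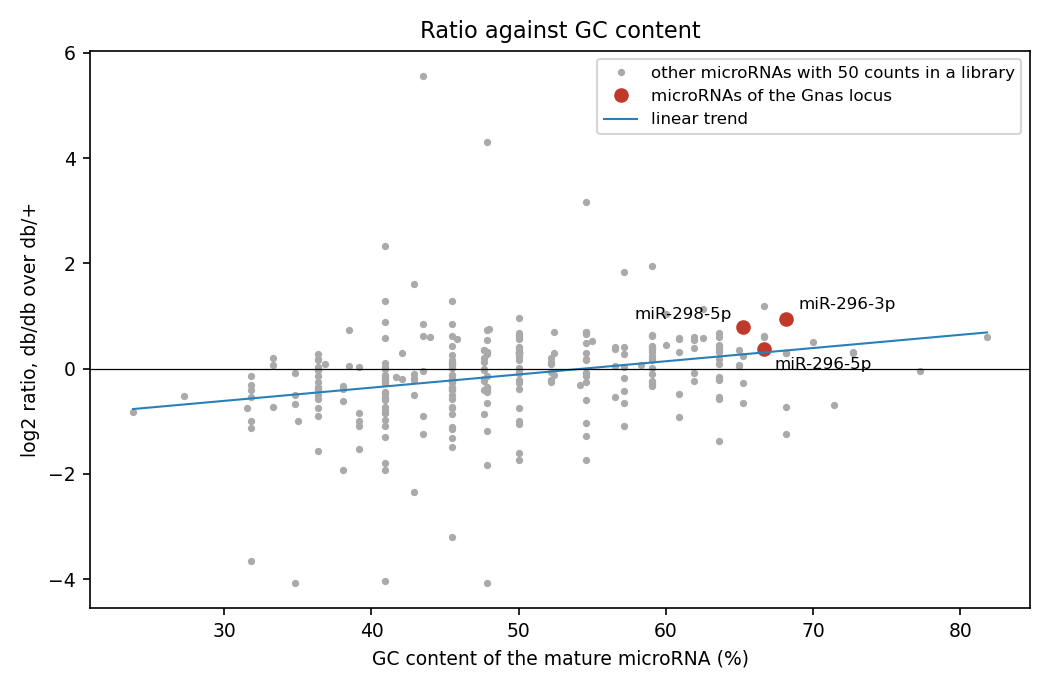
Log2 ratio of db/db over db/+ against the GC content of the mature microRNA, in percent, for 286 microRNAs that reached 50 counts in either library; the line is a linear trend of 0.25 log2 units per 10 percentage points. The 3 Gnas microRNAs (red) lie at 65.2% to 68.2% GC, with miR-296-5p close to the line and the other 2 above it.

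Ratios of reads within a library do not depend on how the libraries are scaled. There were 24.3 reads (22.3 to 26.5) of miR-298-5p for each read of miR-296-5p in db/db and 18.3 (16.6 to 20.2) in db/+, and these intervals were apart. Against miR-296-3p the numbers were 37.9 (34.1 to 42.3) in db/db and 42.05 (36.5 to 48.8) in db/+, and these overlapped. The miR-298 hairpin was thus the main source of reads of the pair in both libraries, although Mir298 and Mir296 are neighbours on the same strand.

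The precursor sequences show where the counted strands lie. Mature arms are in capitals, the 5p arm first.
Mir298: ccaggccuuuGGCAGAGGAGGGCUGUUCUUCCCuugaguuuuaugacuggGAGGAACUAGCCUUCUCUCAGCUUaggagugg
Mir296: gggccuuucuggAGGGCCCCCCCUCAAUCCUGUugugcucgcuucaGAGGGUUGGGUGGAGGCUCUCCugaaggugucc
The miR-298 hairpin was counted on its 5p arm alone. The other arm, miR-298-3p, which is listed in the files but is not among the 9 names, had 0 of 13120 hairpin counts in db/db and 0 of 8115 in db/+, so the 5p share was 100% with exact Clopper-Pearson lower bounds of 99.97% and 99.95%. Of the 42 hairpins with at least 8000 counts in each library, 1 other, let-7g, had every count on 1 arm in both libraries. That limit lies just under the 8115 counts of miR-298 in db/+. Of the 204 hairpins with at least 50 counts in each library, 9 had every count on the 5p arm in both, miR-298 included. Others had every count on the 3p arm, such as miR-101b, with 5543 counts in db/db and 6782 in db/+. The sources used here do not say how reads were matched to each arm, and whether the listing of these arms at 0 comes from that step was not tested. The same holds for the other names below with no count, and the limits given for them assume that reads of those arms would have been counted.

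The miR-296 hairpin used both arms. The 5p arm held 61.0% of 887 counts in db/db (57.7 to 64.2) and 69.7% of 636 counts in db/+ (65.9 to 73.2), a difference of -8.66 percentage points with intervals apart. In reads, that is 1.56 of the 5p arm for each of the 3p arm in db/db (1.36 to 1.79) and 2.30 in db/+ (1.93 to 2.73). The 5p arm was the major arm in both. Of the 2 hairpins compared, miR-296 and miR-298, 0 differed by at least 10 points, while over all 204 hairpins with at least 50 counts in each library 9.80% did. The median absolute difference over those 204 was 0.917 points, and 26 hairpins had a larger one than miR-296. The 204 include hairpins counted almost wholly on 1 arm, such as let-7b, whose shares hardly differed, so this median is a poor yardstick for miR-296. Hairpins that used both arms, as miR-296 did, differed by more in some cases (miR-106b by -18.6 points, miR-23b by 18.8). Others differed by less (miR-187 by 1.59, miR-485 by -3.15).

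**Figure D4:**
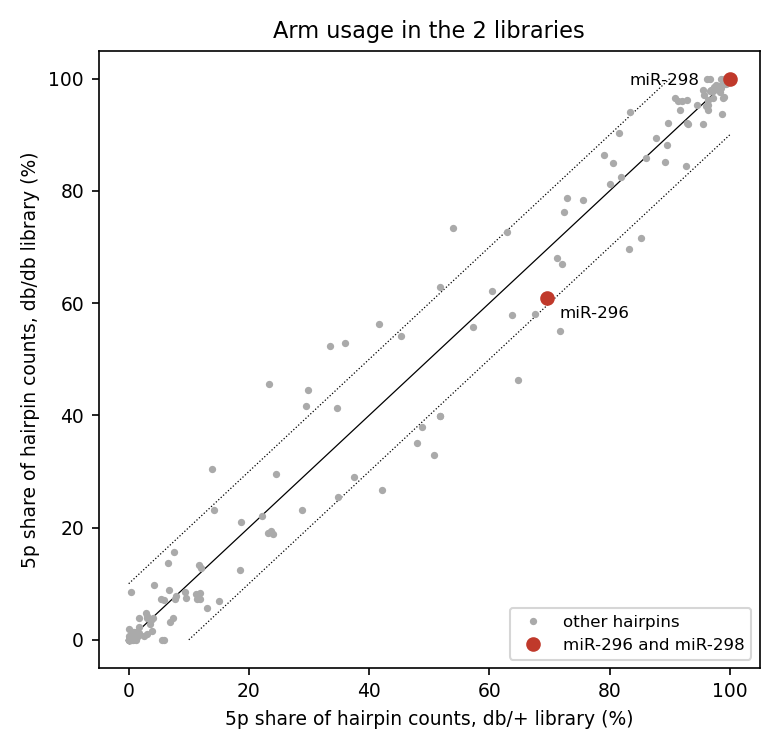
Percentage of the counts of a hairpin that fell on the 5p arm, in the db/db library (vertical) and the db/+ library (horizontal) for 204 hairpins; the solid line marks equal shares and the dotted lines a difference of 10 points. The red point of miR-296, at 61.0% in db/db and 69.7% in db/+, lies just inside the lower dotted line, and miR-298 lies at 100% in both.

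The 2 microRNAs nearest in level to each Gnas microRNA were found by the distance between log2 CPM values over the 2 libraries, so likeness here means only similar values in 2 libraries. For miR-298-5p they were miR-127-3p (565 CPM in db/db and 361 CPM in db/+, ratio 1.56) and miR-541-5p (464 and 306 CPM, ratio 1.51), both of the imprinted Dlk1-Dio3 locus on chromosome 12. For miR-296-5p they were miR-1188-5p, also encoded on chromosome 12, with 544 and 444 counts and a ratio of 1.31, and miR-181c-5p with 1.20. For miR-296-3p they were miR-342-5p with 1.55 and miR-183-5p with 1.85. The ratio of miR-298-5p, 1.72 (1.68 to 1.77), had an interval above those of its 2 neighbours, 1.56 (1.52 to 1.61) and 1.51 (1.47 to 1.56). The neighbours were chosen on these same values, so this comparison is a description only.

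Of the other imprinted microRNA clusters, the Dlk1-Dio3 list had 59 of 101 names past 50 counts, 35 of them with a ratio above 1 and 24 below, and a median log2 ratio of 0.27. The Sfmbt2 list had 28 of 80 names past 50 counts, 1 above and 27 below, and a median of -0.97. Some names in it had identical counts, such as miR-669a-3p and miR-669o-3p, both at 15.6 CPM in db/db and 36.8 CPM in db/+. The Dlk1-Dio3 list held nearly identical values too: miR-299a-3p and miR-299b-3p both had 25.1 CPM in db/db, and 20.5 and 20.6 CPM in db/+. The tally, the median and the summed level of both lists may thus count some reads more than once. The summed level was 577 CPM in db/db and 339 CPM in db/+ for the 9 names, 4078 and 3065 CPM for Dlk1-Dio3, and 1292 and 1433 CPM for Sfmbt2. Most of the Sfmbt2 sum came from miR-669c-5p, its only name past 50 counts with a ratio above 1. It had 1067 CPM in db/db and 1025 CPM in db/+, a ratio of 1.04.

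The remaining loci were at the edge of detection. From Mest, which encodes a membrane-bound hydrolase-like protein of mesoderm and fat, mmu-miR-335-5p had 16 counts in db/db and 6 in db/+. That is 0.659 CPM (0.376 to 1.07) and 0.232 CPM (0.0850 to 0.504), a ratio of 2.84 with an interval of 1.06 to 8.88. The 2 CPM intervals overlapped, and the ratio's interval only just excluded 1. Large ratios were common at such counts: of 97 names with 10 to 19 counts in the higher library, 13 had a ratio at least as high, miR-335-5p included. The microRNA is known from human breast cancer as a suppressor of metastasis. Its 3p partner, miR-335-3p, had no count in either library, which allows up to 0.123 CPM in db/db and 0.116 CPM in db/+ (3 counts of each total).

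From Igf2, the gene of a fetal growth factor, mmu-miR-483-5p had 2 counts in db/db and 29 in db/+. The levels were 0.0823 CPM (0.00997 to 0.297) in db/db and 1.12 CPM (0.749 to 1.61) in db/+, with intervals apart, and the ratio was 0.0736 with an interval of 0.00851 to 0.291. It was the only detected one of the 9 with a ratio below 1. Of 100 names with 20 to 49 counts in the higher library, 17 had a ratio of at most 0.5 and 4 a ratio as low as that of miR-483-5p or lower, miR-483-5p included. Both microRNAs missed the limit of 50 counts. At 10 counts, miR-335-5p passed the ratio of 2 and miR-483-5p that of 0.5, beside 8.32% and 16.5%, or 24.8% in either direction, of all 553 names past 10 counts. The 3p arm, miR-483-3p, had no count in either library.

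The order of these 2 microRNAs differed between the libraries. In db/db there were 8 reads of miR-335-5p for each read of miR-483-5p (1.88 to 71.7), and in db/+ there were 0.207 (0.0702 to 0.507), values that need no scaling. In db/db the order of levels was miR-298-5p, miR-296-5p, miR-296-3p, miR-335-5p and miR-483-5p, and in db/+ the last 2 changed places. Within each library, the counting interval of every detected microRNA was apart from that of the next in the order.

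H19 is a long non-coding RNA of fetal and growing tissue, and miR-675, cut from its exon, is known in the mouse to limit placental growth. Both miR-675-5p and miR-675-3p had no count in either library, which again allows up to 0.123 CPM each in db/db and 0.116 CPM each in db/+. At this depth, 0 counts cannot tell absence from a level below those limits. For comparison, miR-298-5p was measured at 540 and 313 CPM in the same libraries. A microRNA count does not measure its host transcript, and the levels of H19, Igf2, Mest and Gnas RNA were not analysed here.

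**Figure D5:**
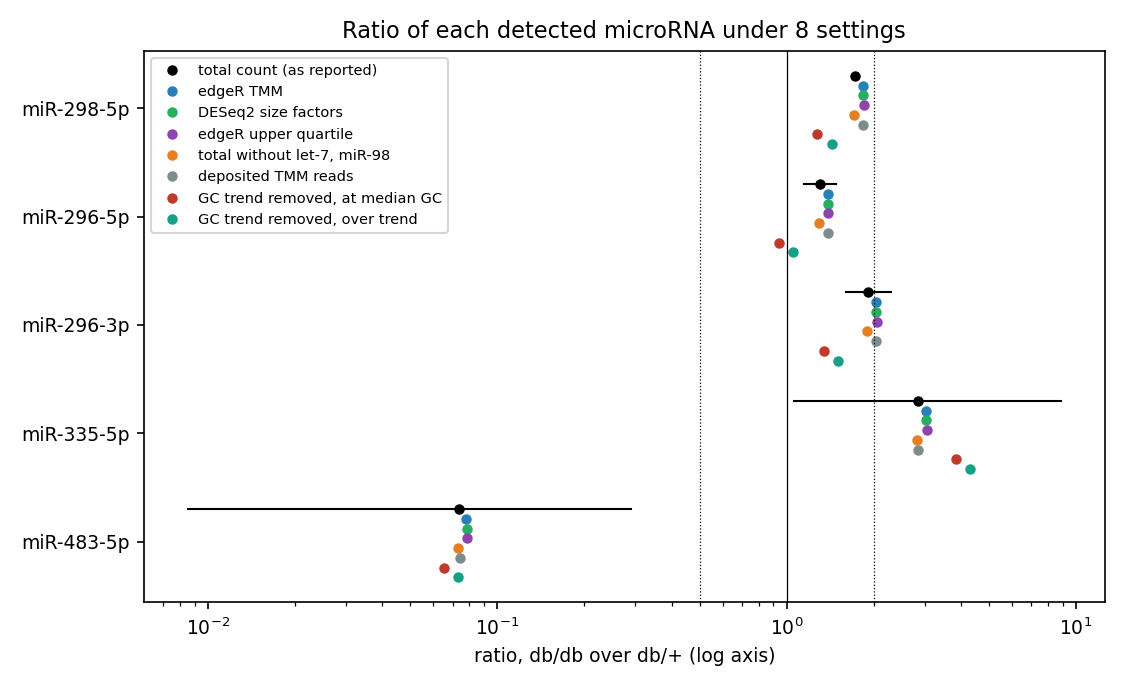
Ratio of db/db over db/+ on a log axis for the 5 detected microRNAs under 8 settings; black points with bars are the reported ratio and its 95% counting interval, coloured points the 5 other scalings and the 2 ways of removing a GC trend, and dotted lines a ratio of 0.5 and of 2. The scalings move the points little, miR-296-3p sits on either side of 2, and without the GC trend miR-296-5p lies at 0.94 or 1.05, on either side of 1. Without the GC trend miR-335-5p lies at 3.85 or 4.32, and miR-483-5p at 0.0655 or 0.0734.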

How the data were processed

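Mature microRNAs were counted by the authors in 1 db/db and 1 db/+ library. The authors' raw read counts and TMM-normalized reads (trimmed mean of M values) are named as such in the file headers. The deposited normalized reads were whole numbers, within 1 read of the raw counts times 1.06 in db/db and 0.939 in db/+ for names under 1000 counts, so they were treated as a score and served 1 alternative. Novoalign, edgeR and mm10 are listed in the submitters' processing notes. How reads were trimmed, which catalogue was used and how reads matching several names were handled is not given in the sources used here. Some pairs of names had identical counts in each library, such as miR-199a-3p and miR-199b-3p, at 7420 CPM in db/db and 10205 in db/+. All names entered the library totals, which may thus hold some reads more than once.

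Counts were divided by the library total and given as CPM. With 1 library per group edgeR's quasi-likelihood model could not be fitted, which left no p-values to report. Ratios, with exact intervals, were instead read against a size rule: at least 2 or at most 0.5, with at least 50 counts in a library. Log2 ratios had 0.5 counts added. The computation was tested on simulated Poisson counts, which held no variation between libraries of a group. That check covers the arithmetic only and cannot show how well ratios from 1 library per group would repeat. Python 3.11.15, scipy 1.17.1, R 4.3.3, edgeR 4.0.16 and DESeq2 1.42.0 were used. Sequences came from RefSeq (GRCm38.p6) and positions from GENCODE M21 on GRCm38 (mm10).

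Named microRNAs were the 9 members, the 2 nearest in level to each member past 50 counts, any sharing a member's seed, and comparison and marker lists. The members and lists were chosen with earlier results of these data known.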

Additional observations from a re-analysis of the deposited data

How the results depend on the processing

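The Gnas locus ratio of 1.71 was 1.81 with edgeR TMM factors and with the deposited normalized reads, 1.82 with DESeq2 size factors and 1.83 with upper-quartile factors, all above its counting interval, and inside it without let-7 and miR-98. The scaling factors shifted log2 ratios by 0.09 to 0.10, and by -0.01 for the total without let-7 and miR-98. Deposited reads are rounded, so at their few reads miR-335-5p (2.83) and miR-483-5p (0.0741) moved less. The Mest and Igf2 ratios stayed inside their intervals under all 5 scalings, at 2.83 to 3.04 and 0.0731 to 0.0787. The count of members at least 2-fold higher, 0 as reported, was 1 (miR-296-3p) with TMM, DESeq2, upper-quartile and deposited scaling, 1 (miR-335-5p) at a floor of 10 counts and with no floor, and 2 (miR-298-5p and miR-296-3p) at 1.5-fold, which 13.5% of the 356 names reached. The count at least 2-fold lower, also 0, was 1 (miR-483-5p) without a floor and with 10 counts as the floor. Hairpins compared for arm use numbered 2, and 4 with no minimum, where 0 again differed by 10 points. With the GC trend removed and set at the median GC content, miR-296-5p had a ratio of 0.94, on the other side of 1, and 1.05 relative to the trend. In the same order, miR-335-5p had 3.85 and 4.32 and miR-483-5p 0.0655 and 0.0734, all inside their counting intervals. Both settings were chosen after the data were seen. Of 35 values of single members, 25 stayed in the counting interval, 9 left it on the same side of 1 and 1 crossed 1. Apart from the scaling factors and thresholds themselves, the cause was not tested. The labels give no pairs. No paired analysis was possible because there is only 1 library for each genotype, and a comparison without either is not possible.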
